A study of Mus musculus with 9 samples.

Results

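The retinas of Balb/c mice in the light damage model were compared with control retinas, 3 RNA-seq libraries a side, 6 of the 9 libraries in the series. The comparison takes in every gene that passed the filter on low counts, 17272 of the 55414 genes in the deposited table. Balb/c is an albino strain, whose retina is easily injured by bright light. The labels give the groups as control and light damage, with the same strain and tissue throughout, and they give no age, light intensity or duration and no time between light and collection. The remaining 3 libraries received light and A74, and they enter only the estimate of the spread. Nothing in the labels says that replicates came from separate animals. The p-values therefore describe only how far these libraries vary, and part of that variation may be technical.

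Bright light bleaches visual pigment faster than the eye can recycle it, and rods of albino animals die when the exposure is long enough. Stressed photoreceptors release signals such as endothelin 2, and Müller glia answer with the leukaemia inhibitory factor pathway, in which the receptor subunit gp130 activates STAT3. Microglia move into the photoreceptor layer and take up debris. Photoreceptors themselves run on glycolysis, depend on lipid and taurine transport, and signal through ribbon synapses. In whole retina, fewer cells of a type and less RNA per cell cannot be told apart.

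The libraries held 14787972 to 18740434 counts each. Light damage replicates 1 and 2 and control replicates 1 and 2 carried Y-linked transcripts and 183 to 275 CPM (counts scaled to a common library size with TMM factors) of 8 genes of anterior eye tissue. Control replicate 3 and light damage replicate 3 had no Y-linked counts, with Xist at 22253 counts in the control and 1 in the light damage library, and 12.5 and 12.7 CPM of those 8 genes. The first 4 libraries are called the high tissue set below, and the other 2 the low tissue set. Light damage replicates 1 and 2 also stood apart from the other libraries at genes named after their values were seen. Gm10503 had 0 counts in both against 23.9 to 27.6 CPM in the 3 controls and light damage replicate 3, and Glo1, a glyoxalase, had 211 and 233 CPM against 403 to 450 CPM. Pde6b, a rod gene with values given below, was also far lower in light damage replicates 1 and 2 than in replicate 3. Whether the mice differed in genotype at any of these genes was not tested.

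The response was broad and of moderate size. Of the genes tested 4452 were called, 25.8% at a Benjamini-Hochberg adjusted p under 0.05 in edgeR's quasi-likelihood test, which gives every adjusted p below. There were 2247 higher (13%) and 2205 lower (12.8%). Without light damage replicate 2 the calls numbered 2842, 1472 higher and 1370 lower, and without light damage replicate 1 there were 1464 lower. At least 2-fold changes were lopsided, with 482 higher (2.79%) and 133 lower (0.77%). That lower count was 218 without light damage replicate 3 and 79 without light damage replicate 2. Without control replicate 1 it was 89, and without light damage replicate 1 it was 88. The counts for each gene list below are read against these shares of 13% higher and 12.8% lower. The 3 light damage libraries lay wholly outside the 3 controls for 40.6% of genes.

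Each light damage library carried the response, replicate 3 the least. Over genes called higher, the median log2 difference from the control mean was 0.50 in replicate 1, 0.48 in replicate 2 and 0.32 in replicate 3. Over genes called lower, it was -0.44, -0.38 and -0.26 in the same order. Replicate 3 was the weakest of the 3 for 75.3% of genes called higher and for 84.85% of those at least 2-fold higher, yet it lay on the opposite side of the control mean for only 3 of the 4452 called genes. These medians use the libraries that chose the genes, so each light damage library was also held out with a control, in 9 combinations, and the genes were called in the rest. Of genes then called higher, 97.3% to 98.2% had the same direction when replicate 1 was held out, 96.5% to 99.6% for replicate 2 and 87.1% to 92.8% for replicate 3. For genes called at least 2-fold higher, the median difference in the held-out pair was 1.88 to 2.12 for replicate 1, 1.59 to 1.77 for replicate 2 and 0.75 to 0.94 for replicate 3. For genes called at least 2-fold lower it was -0.81 to -1.14, -0.89 to -1.10 and -0.47 to -0.65 in the same order, while the medians in the fits that called them were -1.25 to -1.45.

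**Figure D1:**
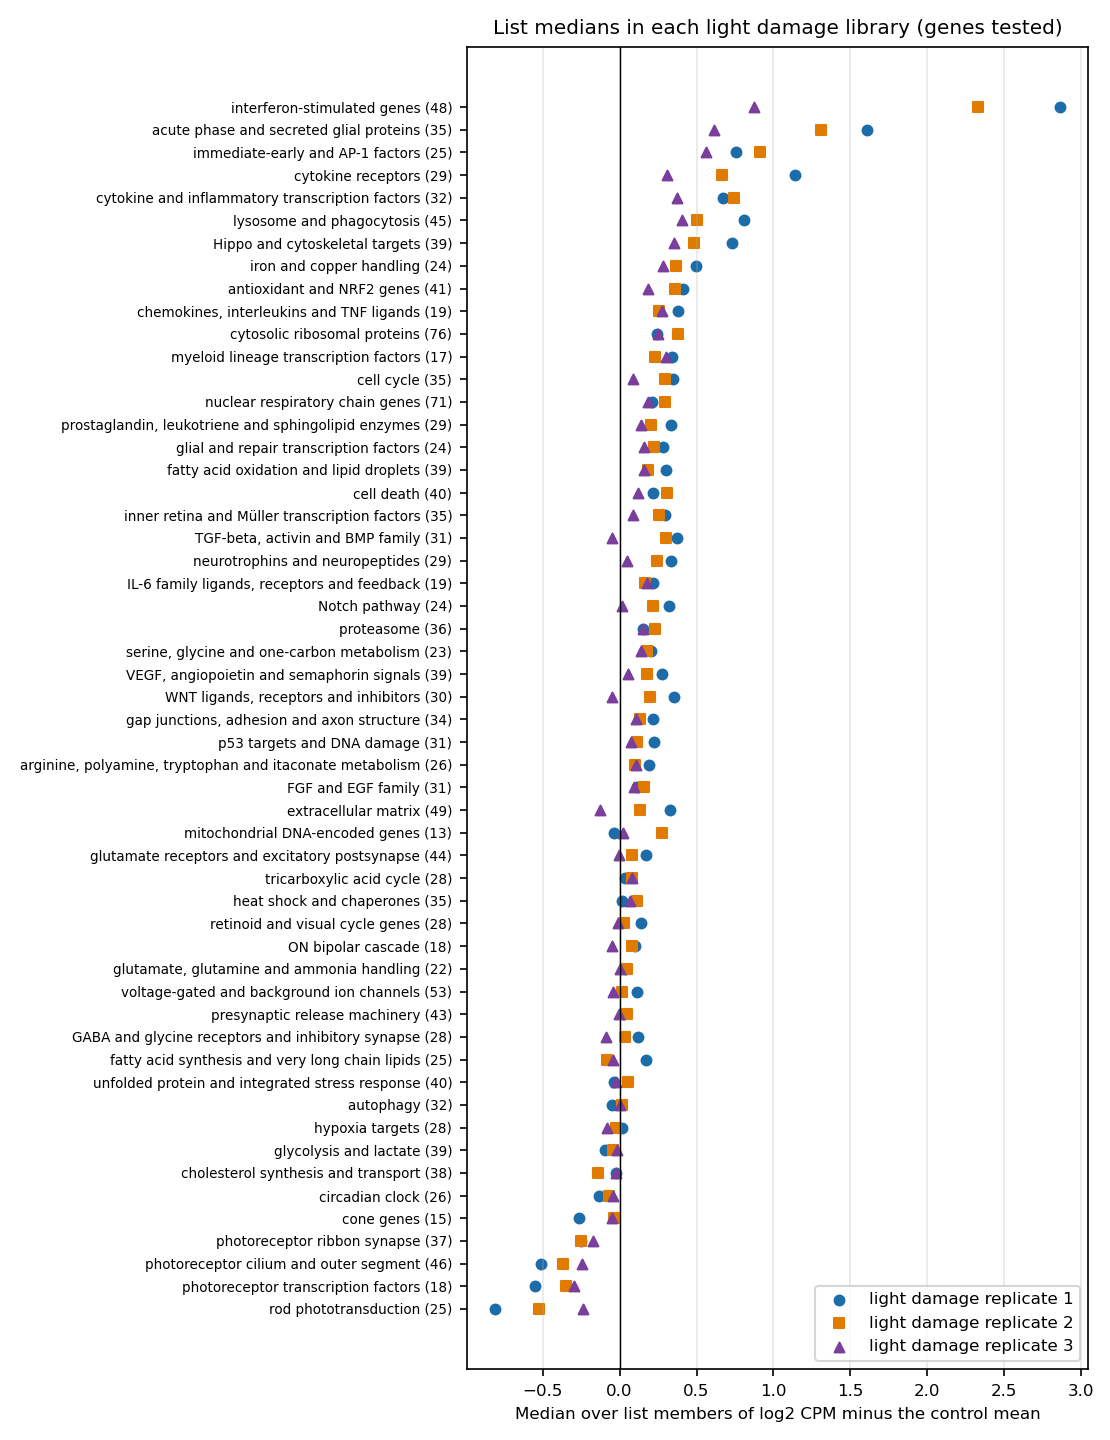
Median log2 CPM difference from the control mean over the tested members of each gene list (x axis), with 1 symbol per light damage library and the number of genes tested in parentheses. Cell type marker lists are not drawn, and of the lists drawn interferon-stimulated genes have the widest span, from 0.87 in replicate 3 to 2.86 in replicate 1. That list keeps 1 sign in all 3 libraries, as do many others, among them cytosolic ribosomal proteins and the cilium list.

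Transcription factors of photoreceptors fell and those of glia and of the stress response rose. Of 18 photoreceptor factors 12 were lower and none higher, with a median log2 fold change of -0.41 against 0.01 over all genes tested. Nrl, the leucine zipper factor that directs rod fate, had 2325, 2291 and 2030 CPM in controls and 1103, 1435 and 1636 CPM in light damage replicates 1, 2 and 3. Every light damage library lay under every control, and the log2 fold change was -0.67 (SE 0.12, adjusted p = 0.00089). Crx, the homeobox factor of rods and cones, went from 1348 to 1403 CPM in controls to 850, 1100 and 1127 CPM, a log2 fold change of -0.43. Samd11, a photoreceptor repressor partner, had 242 to 253 CPM in controls and 121, 144 and 160 CPM after light, the largest fall of the list (-0.82, SE 0.10, adjusted p = 0.00021). Prdm1, which keeps precursors from the bipolar fate, fell by 0.65, Rorb by 0.49, Mef2d by 0.46 and Mef2c by 0.53 on the log2 scale. Nr2e3, the rod nuclear receptor that represses cone genes, was not called (589, 582 and 568 CPM against 413, 460 and 564 CPM, adjusted p = 0.083). Replicate 3 sat just under the controls for Nr2e3. Without that library the adjusted p was 0.0017, and with the replicate block it was 0.025. Summed CPM of 11 rod markers was 57340 to 62260 in controls and 33340 to 48310 in light damage, and its part in these falls was not tested.

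Factors of Müller glia and the inner retina moved the other way, 17 of 35 higher and none lower (median 0.23). The list median was 0.30 and 0.26 in light damage replicates 1 and 2 but 0.09 in replicate 3. Sox9, which marks Müller nuclei, had 29.9, 31.8 and 25.1 CPM in controls and 55.3, 48.6 and 39.8 CPM in light damage replicates 1, 2 and 3 (log2 fold change 0.73, SE 0.14, adjusted p = 0.0049). Sox2, a progenitor and glial factor, rose by 0.60 and Sox8 by 0.57, and Lhx2, a regulator of gliosis, rose from 31.1 to 37.6 CPM to 43.2 to 51.9 CPM. Groups did not overlap for any of these. Six3 (0.36) and Id4 (0.37) also rose, while the eye field factor Rax had -0.14 (adjusted p = 0.15). Among 24 factors of glial repair 6 rose and none fell, with the Hippo effector Yap1 at 0.47, its relative Wwtr1 at 0.32 and their DNA-binding partner Tead2 at 0.73. The summed CPM of 12 Müller markers was 5849 to 6639 in controls and 7685 to 8573 in light damage, and its part in these rises was not tested.

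Immediate-early factors were higher in all 3 light damage libraries. Of 25 tested, 16 were higher and none lower, with a median of 0.82. Junb, an AP-1 subunit, had 16.2, 12.5 and 14.4 CPM in controls and 39.1, 42.6 and 32.1 CPM in light damage (log2 fold change 1.41, SE 0.13, adjusted p = 2e-05). Fos, its partner, had 27.8, 22.4 and 18.9 CPM and then 53.8, 62.5 and 43.0 CPM, and Fosb rose by 1.46. Replicate 3 was the lowest light damage library for each of these, still clear of the controls. The stress factor Atf3 was even across the 3 light damage libraries, at 12.4, 13.8 and 13.4 CPM, against 6.34 to 8.76 CPM in controls (0.85, SE 0.14). Klf10 (0.94), Ier2 (0.56) and Fosl2 (0.86) rose as well.

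Cytokine-responsive factors rose in 18 of 32 cases with 1 lower (median 0.61). Cebpd, a target of STAT3 in glia, had 3.82, 4.22 and 4.72 CPM in controls and 31.1, 28.7 and 19.5 CPM in light damage, 6.21-fold higher (SE of the log2 value 0.19, adjusted p = 3.2e-06). Stat3 itself rose by less but evenly, from 69.0 to 77.1 CPM to 115, 128 and 106 CPM (0.67, SE 0.07). Bcl3 and Relb, members of the NF-kB system, rose by 3.10 and 2.01 from control levels of at most 0.742 and 1.35 CPM, and Irf8 and Cebpa, factors of the myeloid lineage, by 2.24 and 2.28. Irf7, the amplifier of interferon genes, had 55.3 and 42.4 CPM in replicates 1 and 2 but 21.4 CPM in replicate 3, within the controls (18.4 to 22.8 CPM). It was not called (adjusted p = 0.095), and without replicate 3 the adjusted p was 7.9e-07. The factor that fell was Irf3, named after its values were seen, which acts downstream of nucleic acid sensors (51.3 to 52.0 CPM against 65.2 to 69.1 CPM, -0.39, SE 0.07). Of 17 myeloid factors 8 rose, with Spi1, which encodes PU.1, at 2.38, Ikzf1 at 1.85 and Runx1 at 1.84. Summed CPM of 18 microglia and macrophage markers was 87.3 to 100.7 in controls and 284 to 456 in light damage, and its part in these rises was not tested.

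**Figure D2:**
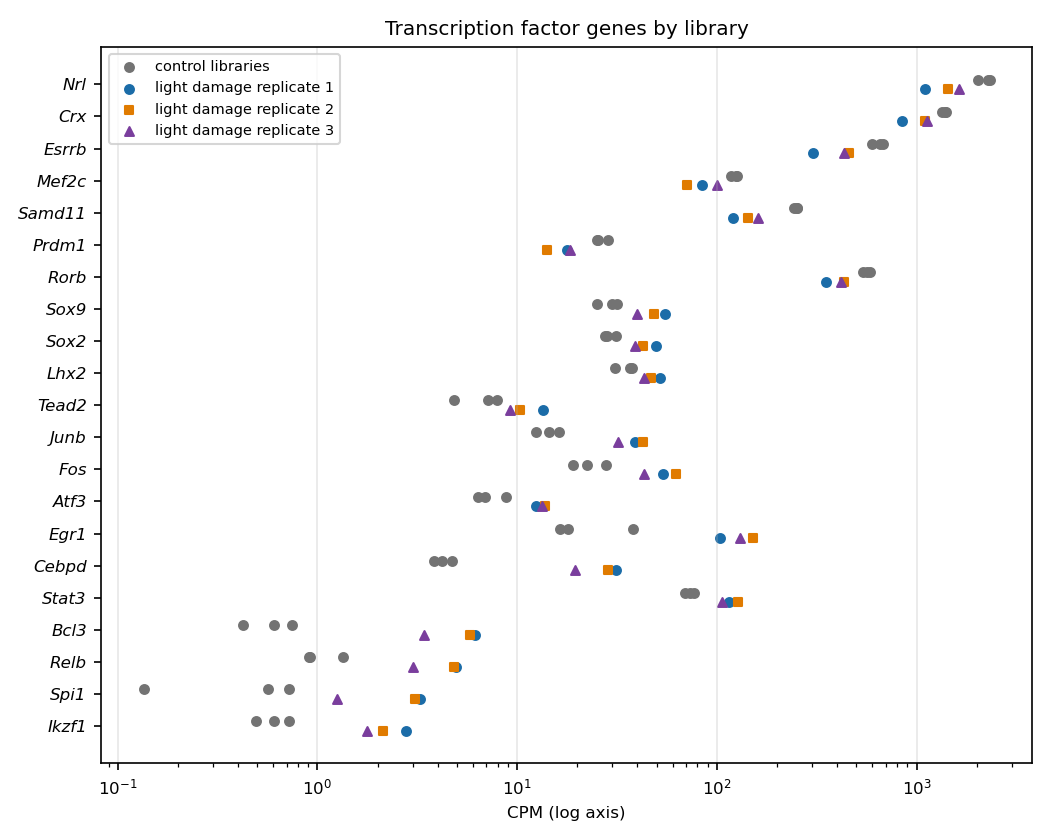
CPM on a log axis for transcription factor genes in the 3 control libraries (grey) and the 3 light damage libraries (1 symbol each). Photoreceptor factors at the top lie to the left of their controls, for example Samd11 at 121 to 160 against 242 to 253 CPM, and the factors from Sox9 down lie to the right.

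Promoter sequence was read for the 12076 tested genes matched in RefSeq's table by Ensembl gene ID, or by symbol where no ID matched. The build was GRCm38.p6, and the stretch ran from 250 bases before to 50 after the gene start. Motifs were searched on both strands as plain letters, and a match is a description, not a site. The interferon element (GAAA, any 2 bases, GAAA) occurred in 2.87% of all promoters, in 12.7% of the 361 promoters of genes called at least 2-fold higher and in 57.1% of 35 promoters of interferon-stimulated genes. TGANTCA, the AP-1 element, occurred in 4.83% of all and 13.9% of those 361, and TTCNNNGAA, the STAT element, in 6.67% and 11.1%. The NF-kB motif (GGG, any 2 bases, TTTCC) occurred in 1.61% of all and 5.82% of those 361, and the PU.1 and ETS motif GAGGAAG in 13% and 21.9%. The interferon element also occurred in 12.7% of 55 ribosomal protein promoters. The interferon and STAT elements can overlap each other. TAATCC, the letters bound by CRX and OTX factors, occurred in 5.97% of all promoters, in 7.82% of 1612 promoters of genes called lower and in 47.1% of 17 promoters of rod phototransduction genes. It occurred as often, in 7.76%, in the 361 promoters of genes at least 2-fold higher, and in 5.36% of 56 promoters of genes at least 2-fold lower. For the photoreceptor cilium list the share was 5.13% of 39. Of 24 promoters of acute phase and secreted glial genes, a list that mostly rose, 0 held the STAT element and 1 the AP-1 element. The AP-1 element occurred in 0 of 21 promoters of immediate-early factors. The 5 promoters below each hold a match and were picked by hand as examples. They run 5′ to 3′ on the gene's strand, and capitals mark only matches to the motif named beside each gene.
Isg15, 3 overlapping interferon elements (chr4:156200769-156201068, - strand): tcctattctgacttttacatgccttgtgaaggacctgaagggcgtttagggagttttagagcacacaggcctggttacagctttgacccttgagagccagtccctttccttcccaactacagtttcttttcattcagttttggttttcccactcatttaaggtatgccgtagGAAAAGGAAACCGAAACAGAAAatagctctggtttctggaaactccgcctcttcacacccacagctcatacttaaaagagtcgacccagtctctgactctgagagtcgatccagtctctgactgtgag
Gbp2, interferon element on the other strand (chr3:142620413-142620712, + strand): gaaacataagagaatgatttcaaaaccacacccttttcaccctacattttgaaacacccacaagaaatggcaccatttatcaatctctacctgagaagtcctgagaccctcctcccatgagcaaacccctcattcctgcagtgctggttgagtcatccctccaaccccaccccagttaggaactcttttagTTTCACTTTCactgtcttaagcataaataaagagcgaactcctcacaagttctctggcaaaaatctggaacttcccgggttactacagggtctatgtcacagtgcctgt
Osmr, TGANTCA (chr15:6874264-6874563, - strand): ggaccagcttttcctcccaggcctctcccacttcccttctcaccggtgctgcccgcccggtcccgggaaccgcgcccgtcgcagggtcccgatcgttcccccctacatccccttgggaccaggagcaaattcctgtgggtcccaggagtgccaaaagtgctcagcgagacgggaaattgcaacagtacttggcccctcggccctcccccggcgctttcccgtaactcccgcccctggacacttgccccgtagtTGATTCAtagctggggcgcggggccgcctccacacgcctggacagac
Socs3, TTCNNNGAA (chr11:117969317-117969616, - strand): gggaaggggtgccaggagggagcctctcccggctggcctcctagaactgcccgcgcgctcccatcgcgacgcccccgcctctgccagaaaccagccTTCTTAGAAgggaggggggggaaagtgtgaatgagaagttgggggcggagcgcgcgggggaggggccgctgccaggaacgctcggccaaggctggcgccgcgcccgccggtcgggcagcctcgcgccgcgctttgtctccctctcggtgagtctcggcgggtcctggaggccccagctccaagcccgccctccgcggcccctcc
Cngb1, 2 TAATCC (chr8:95306536-95306835, - strand): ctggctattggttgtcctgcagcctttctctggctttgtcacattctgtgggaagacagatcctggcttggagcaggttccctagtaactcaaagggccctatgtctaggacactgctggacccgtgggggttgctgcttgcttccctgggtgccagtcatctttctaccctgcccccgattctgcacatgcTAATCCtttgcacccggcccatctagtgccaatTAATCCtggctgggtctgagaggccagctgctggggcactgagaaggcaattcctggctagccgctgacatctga

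The interferon element lay 59 bases before the start in Gbp2 and within 78 bases of it in Isg15, and the TAATCC matches lay 58 and 25 bases before the start in Cngb1. The TGANTCA match lay 3 bases after the start in Osmr, and the TTCNNNGAA match 154 bases before it in Socs3. Gbp2, a guanylate-binding protein gene, had 3.11, 3.26 and 2.70 CPM in controls and 24.6, 15.8 and 8.26 CPM in light damage replicates 1, 2 and 3 (log2 fold change 2.42, SE 0.38, adjusted p = 0.0028). Isg15, the ubiquitin-like interferon product, had 0.848, 0.965 and 0.876 CPM and then 18.1, 13.1 and 1.44 CPM. Replicate 3 thus stood far below the other light damage libraries for Isg15. Its log2 fold change of 3.59 (adjusted p = 0.037) was not called without any 1 control (adjusted p = 0.10 to 0.11), light damage replicate 1 (0.089) or light damage replicate 2 (0.090). Nor was it called in the 6 libraries alone (0.097) or with no count filter (0.062). Cngb1, the rod channel subunit, had 1075, 1054 and 965 CPM and then 521, 652 and 760 CPM (-0.68, SE 0.11).

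Interferon-stimulated genes had the widest spread of medians between the light damage libraries among the lists that are not cell type markers. Of 54 listed, 48 passed the filter, 40 of them higher and none lower, with a median log2 fold change of 2.25. The median was 2.63 within the high tissue set and 0.89 within the low set, which holds 1 library a side. These medians leave out members that did not pass the filter and had few counts in replicate 3. Oas1a had 137, 81 and 9 counts in light damage replicates 1, 2 and 3 against 1, 3 and 2 in controls. Mx1 had 42, 38 and 2 counts against 3, 0 and 0. The difference between the sets was called for 19 of the 48, all with the larger rise in the high set, against 202 of the 17272 genes tested (1.17%). Y-linked transcripts and anterior eye genes separate the same libraries, so these and the size of the rise cannot be told apart here.

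Signals of injured photoreceptors and their receptors did not move as 1 group. Edn2, the endothelin made by stressed photoreceptors, had 33.6, 27.7 and 32.1 CPM in light damage against 4.52 to 5.25 CPM in controls, 6.39-fold higher, with the smallest adjusted p of all genes that rose. Replicate 3 was as high as replicate 1. Its receptor gene Ednrb in glia had 0.43 (adjusted p = 0.067), with replicate 3 within the controls, and was called without that library (adjusted p = 0.0011). In the interleukin 6 family, 7 of 19 tested members rose and 3 fell. Lif, the ligand that protects photoreceptors, had 0.424, 0.422 and 0.472 CPM in controls and 3.19, 1.61 and 0.984 CPM in light damage (log2 fold change 2.12, SE 0.44, adjusted p = 0.0024). Osmr, the oncostatin M receptor subunit, had 7.56, 7.84 and 7.48 CPM and then 32.2, 23.8 and 22.2 CPM (1.77, SE 0.15, adjusted p = 5.3e-06). Lifr, another partner of gp130, went the other way, from 112 to 120 CPM to 79.4, 91.8 and 95.2 CPM (-0.38, SE 0.07). The feedback inhibitor Socs3 rose by 1.61, with 11.6, 10.7 and 6.56 CPM against 3.04 to 3.30 CPM. Ligand genes Cntf, Il6, Il11 and Osm did not pass the filter, with at most 10 counts in any of the 6 libraries.

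Of 31 FGF and EGF family genes 8 rose (25.8%) and none fell. Fgf2, which protects photoreceptors when injected, had 34.1, 33.2 and 35.3 CPM in controls and 83.6, 86.8 and 85.1 CPM in light damage, nearly the same in each library of a group (log2 fold change 1.32, SE 0.18, adjusted p = 0.0016). Its receptor gene Fgfr1 rose by 0.70 and Dusp6, a feedback phosphatase of the ERK pathway, by 0.76. Tgfa, a ligand of the EGF receptor, rose by 0.56, while Hbegf had 0.21 (adjusted p = 0.25). Bdnf stood at 7.28 to 8.02 CPM in controls and 7.61 to 8.79 CPM in light damage (adjusted p = 0.56), and Gdnf did not pass the filter, with at most 13 counts. Of 29 neurotrophin and neuropeptide genes 8 rose and 1 fell. The peptide genes Scg2 (0.35), Chga (0.45) and Sst (1.17) rose, and Ntrk3, the receptor of neurotrophin 3, fell by 0.58. In the TGF-beta family 4 of 31 rose (12.9%, near the 13% of all genes), among them Tgfb2 (0.41), Tgfb1 (1.46) and their receptor gene Tgfbr2 (1.29), and 3 fell, among them Bmpr1a (-0.30). WNT genes rose in 5 of 30 cases (16.7%, against 13% of all genes) and fell in 1, with the glial ligand Ndp at 0.74 and the receptor Fzd7 at 0.85. Replicate 3 did not carry either list. In light damage replicates 1, 2 and 3 the median was 0.37, 0.30 and -0.05 for the TGF-beta family and 0.35, 0.20 and -0.05 for WNT genes.

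Chemokines and interleukins were mostly near the limit of detection. Of 38 listed, 19 passed the filter, 8 of them higher and none lower. Csf1, the growth factor of microglia, had 5.44, 6.70 and 5.53 CPM in controls and 17.7, 15.3 and 11.9 CPM in light damage (log2 fold change 1.34, SE 0.16, adjusted p = 2.8e-05). Cxcl16 rose by 1.03 and the alarmin gene Il33 by 0.55. The other microglial ligand genes Il34 (-0.18, adjusted p = 0.51) and Cx3cl1 (0.02, adjusted p = 0.89) were not called. Ccl2 did not pass the filter, with 17, 34 and 8 counts in light damage and 0, 2 and 0 in controls, nor did Cxcl1, with 11, 18 and 5 counts against 0 in each control. For both, replicate 3 had the fewest counts of the light damage libraries. Tnf and Il1b had at most 6 counts in any of the 6 libraries. Cytokine receptors rose in 15 of 29 cases, none lower (median 0.81), among them Csf1r (1.30), Tnfrsf1a (1.51) and Csf2rb (2.44).

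Acute phase and secreted glial proteins had the second highest median of the non-marker lists, 1.00, with 24 of 35 higher and none lower. Plau, which encodes urokinase, had 0.283, 0.724 and 0.876 CPM in controls and 13, 13.5 and 8.79 CPM in light damage, 18.4-fold higher (SE of the log2 value 0.28, adjusted p = 1.8e-07). Spp1, the phagocyte product osteopontin, had 7.07, 7.06 and 9.24 CPM and then 262, 178 and 144 CPM (4.64, SE 0.30). The abundant lipid carriers Apoe (342 to 435 CPM against 598 to 858 CPM) and Clu (440 to 491 CPM against 806 to 1213 CPM) rose by 0.91 and 1.11. Light damage replicate 3 was the highest, not the lowest, for some of the list. Chil1, a secreted glial chitinase-like protein, had 54.4, 66.1 and 83.8 CPM against 16.7 to 19.4 CPM (1.95, SE 0.14), and the protease inhibitor Timp1 had 2.89, 3.59 and 3.87 CPM against 0.212 to 0.784 CPM. Lcn2, chosen after its values were seen, had 17.3, 42.6 and 64.1 CPM against 2.09 to 3.18 CPM (4.05, SE 0.59). Matrix genes moved less, 7 of 49 higher (14.3%, near the 13% of all genes) and 4 lower (8.16%). Their median was 0.33, 0.13 and -0.13 in light damage replicates 1, 2 and 3. Ccn1, an early target of YAP, rose by 1.93, and Ccn4, a WNT-induced relative, fell from 99.8 to 108 CPM to 44.2, 41.3 and 56.8 CPM (-1.14, SE 0.10, adjusted p = 2.1e-05). Among vascular and guidance signals 7 of 39 rose and 2 fell, with the VEGF receptor Kdr at 0.82 and Pgf at 1.58, Sema3f at -0.55, and Vegfa at 0.11 (adjusted p = 0.23). Vegfa was called without light damage replicate 3.

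**Figure D3:**
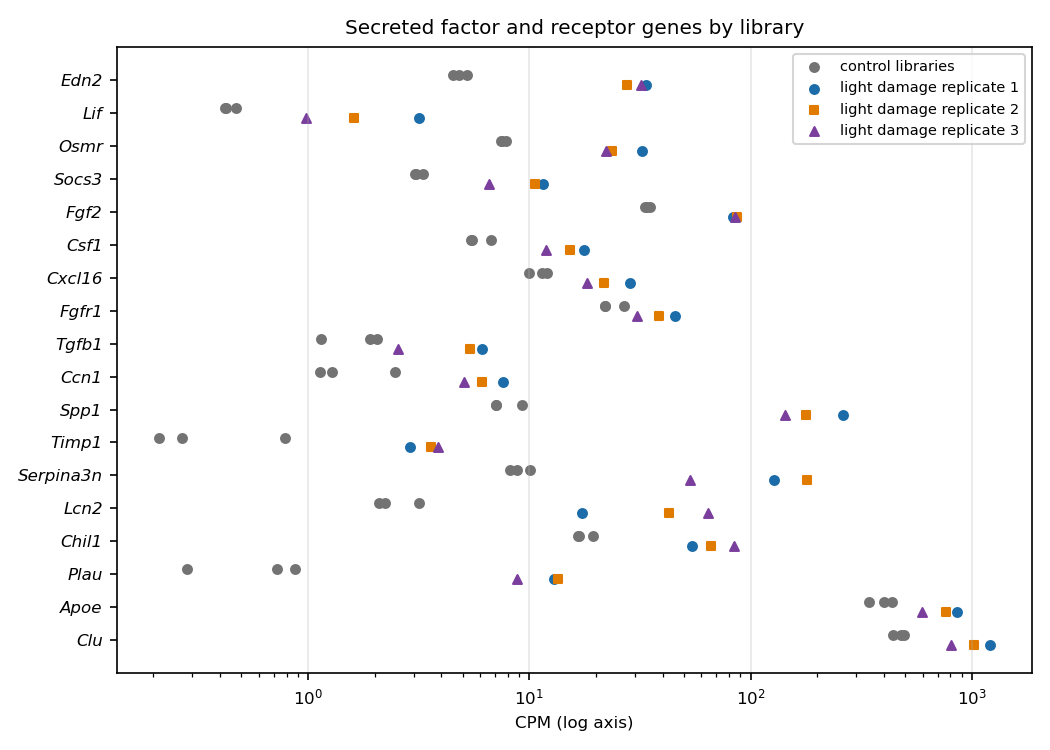
CPM on a log axis for 18 secreted factor, receptor and feedback genes in the 3 control libraries (grey) and the 3 light damage libraries. Edn2 and Fgf2 have 3 close light damage values, 27.7 to 33.6 and 83.6 to 86.8 CPM, while Lcn2 and Chil1 are highest in light damage replicate 3.

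Genes of energy metabolism moved in both directions. Of 39 glycolysis and lactate genes 8 rose and 9 fell (median -0.05). Nxnl1, which encodes rod-derived cone viability factor, had 323, 330 and 307 CPM in controls and 183, 221 and 238 CPM in light damage (log2 fold change -0.58, SE 0.08, adjusted p = 0.00011). Pfkfb2, which tunes phosphofructokinase, had 385, 345 and 359 CPM and then 175, 195 and 255 CPM (-0.80, SE 0.12). Tigar (-0.54) and Pfkp (-0.34) fell too. Hk2, the photoreceptor hexokinase, was 523 to 530 CPM in controls and 256, 381 and 370 CPM in light damage, wholly apart, yet its adjusted p was 0.055 in the fit of 9 libraries and 0.021 in the 6 libraries alone. Pkm had -0.17 (adjusted p = 0.15). Ldhb, the lactate dehydrogenase subunit that favours oxidation, rose from 116 to 141 CPM to 166 to 190 CPM (0.44, SE 0.07), and the myeloid hexokinase gene Hk3 rose by 2.45 from under 1 CPM. In the tricarboxylic acid cycle 6 of 28 rose and 1 fell, by at most 0.32 for those that rose, with Glud1 at 0.26 and Mdh1 at 0.22.

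Nuclear genes of the respiratory chain rose together by a small amount, 40 of 71 higher and 1 lower (median 0.24). Cox7c, a subunit of cytochrome oxidase, had 44.7, 47.0 and 38.7 CPM in controls and 62.4, 66.7 and 60.1 CPM in light damage (log2 fold change 0.54, SE 0.07, adjusted p = 0.00012). Ndufs6, of complex I, rose by 0.56 and Atp5g3, of the ATP synthase, by 0.35. Of 13 genes on mitochondrial DNA 1 was higher and 1 lower, and mt-Co1 stood at 12272 to 13159 CPM in controls and 11785 to 13267 CPM in light damage. Cytosolic ribosomal protein genes were also mostly higher, 55 of 76 higher and none lower (median 0.29), with Rpl38 at 0.99 and Rps21 at 0.75. Many ribosomal genes have near-identical copies, so single values are uncertain.

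These short transcripts were part of a trend with transcript length. Genes were split by transcript length into 5 equal bins. Over the bin with the shortest transcripts (up to 1643 bases) 593 were higher and 202 lower, with a median log2 fold change of 0.08. Over the bin with the longest transcripts (5041 bases and more) 237 were higher and 933 lower, with a median of -0.085. All 3 light damage libraries had this slope. Other coding genes in the length range of the ribosomal proteins had a median of 0.12. With the length trend of each library removed, an alternative chosen after seeing the data, 43 of 76 ribosomal and 30 of 71 respiratory genes were called higher, with medians of 0.22 and 0.16. Whether RNA quality or capture differed between the groups was not tested.

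**Figure D4:**
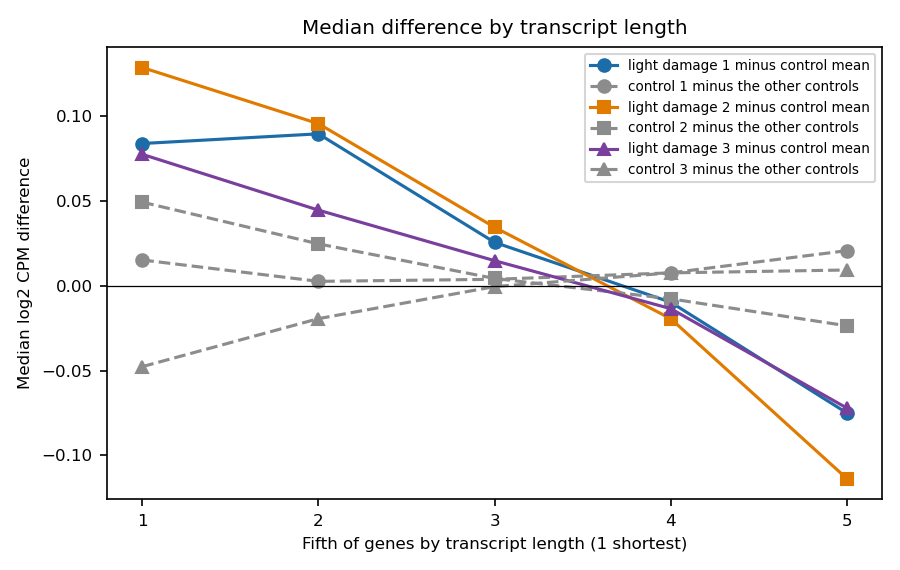
Median log2 CPM difference in 5 equal bins of genes by transcript length, for the 3 light damage libraries minus the control mean (solid) and for each control minus the other 2 (dashed). The light damage lines run from 0.08 to 0.13 in the shortest bin to between -0.07 and -0.11 in the longest, and the control lines stay between -0.05 and 0.05.

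Lipid genes moved in both directions. Plin2, which coats lipid droplets, had 5.51, 5.43 and 6.34 CPM in controls and 25.9, 22.2 and 12.2 CPM in light damage (log2 fold change 1.81, SE 0.25, adjusted p = 0.00077), and the rise was larger in the high tissue set (2.13 against 0.94, adjusted p = 0.027 for the difference). Fabp5, a fatty acid chaperone, rose by 1.47 and Plin3 by 0.94. In that list 13 of 39 rose and 8 fell. Acadl, a dehydrogenase of long-chain oxidation, rose by 0.62 and its relative Acadvl fell by 0.50. Of 25 genes of fatty acid synthesis 6 rose and 7 fell. Elovl4, which makes the very long chains of outer segment membranes, had 761, 734 and 697 CPM and then 467, 546 and 644 CPM (-0.40, SE 0.09), and Agpat3, which builds docosahexaenoic phospholipids, had 1617 to 1731 CPM and then 911, 1141 and 1256 CPM (-0.61). Elovl1 rose by 0.99 and Elovl5 by 0.49. Of 38 cholesterol synthesis and transport genes 6 rose and 3 fell, and those that rose included Npc2 (0.68) and Abca1 (0.57), which export or release cholesterol, while the exporters Abcg1 (-0.34) and Abcg4 (-0.43) fell.

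Genes of amino acid handling moved in both directions. Of 22 glutamate and ammonia genes 6 rose and 6 fell. Slc1a3, the glial glutamate transporter, had 266, 252 and 265 CPM in controls and 472, 394 and 354 CPM in light damage (log2 fold change 0.64, SE 0.08, adjusted p = 9.5e-05). Slc1a7, the transporter of photoreceptor and bipolar terminals, fell by 0.43. Slc6a6, which carries the taurine that photoreceptors need, had 2236, 2230 and 1850 CPM and then 1305, 1450 and 1574 CPM (-0.54, SE 0.11). Glul, the glial glutamine synthetase, had 0.01 (adjusted p = 0.95), with overlapping groups. Gatm, the first enzyme of creatine synthesis, had 5.91 to 6.67 CPM in controls and 56.5, 41.7 and 20.1 CPM in light damage, 6.19-fold higher (SE of the log2 value 0.38, adjusted p = 0.0035), and 2.97 against 1.59 on the log2 scale in the high and low sets (adjusted p = 0.015 for the difference). The folate enzyme gene Aldh1l1, of astrocytes and Müller glia, rose by 1.28 and the arginine producer Ass1 by 0.80, while Arg2, a mitochondrial arginase, fell by 0.53. The serine pathway gene Phgdh had 0.45 (adjusted p = 0.11).

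Of 28 visual cycle genes 4 were higher (14.3%, near the 13% of all genes) and 6 lower (21.4%). Abca4, the outer segment flippase of retinal, had 1683, 1660 and 1516 CPM in controls and 712, 912 and 1132 CPM in light damage (log2 fold change -0.82, SE 0.14, adjusted p = 0.0018). Rdh8, which reduces retinal in rods, fell by 0.70. Glial Rlbp1 rose by 0.48 and Rdh10 by 0.35. Cyp26a1, which degrades retinoic acid, had 1.62, 1.45 and 3.03 CPM and then 8.54, 8.06 and 6.10 CPM (1.90, SE 0.25).

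In a list of antioxidant genes that also holds phagocyte oxidase genes, 24 of 41 rose and 1 fell (median 0.31). Gpx1, a glutathione peroxidase, had 28.3, 26.7 and 25.1 CPM in controls and 43.6, 41.4 and 39.3 CPM in light damage (log2 fold change 0.63, SE 0.08, adjusted p = 5.4e-05). Hmox1, which degrades heme, rose by 1.80, and the mitochondrial peroxiredoxin Prdx5 by 0.50. The 24 include Cybb (3.64), which with Cyba (1.61) encodes the phagocyte oxidase and is not an antioxidant gene. Mt1, a metallothionein that binds zinc and copper, was nearly equal in the 3 light damage libraries, with 50.2, 50.6 and 51.1 CPM against 17.1 to 17.5 CPM (1.55, SE 0.10, adjusted p = 1.5e-07). Iron genes rose in 11 of 24 cases and fell in 4. Steap4, a metalloreductase, rose from 0.270 to 1.13 CPM to 17.9, 29.0 and 28.3 CPM, the ferroxidase gene Cp from 168 to 232 CPM to 463 to 635 CPM, and the ferritin subunit Fth1 by 0.45, while the transferrin receptor Tfrc fell by 0.34.

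**Figure D5:**
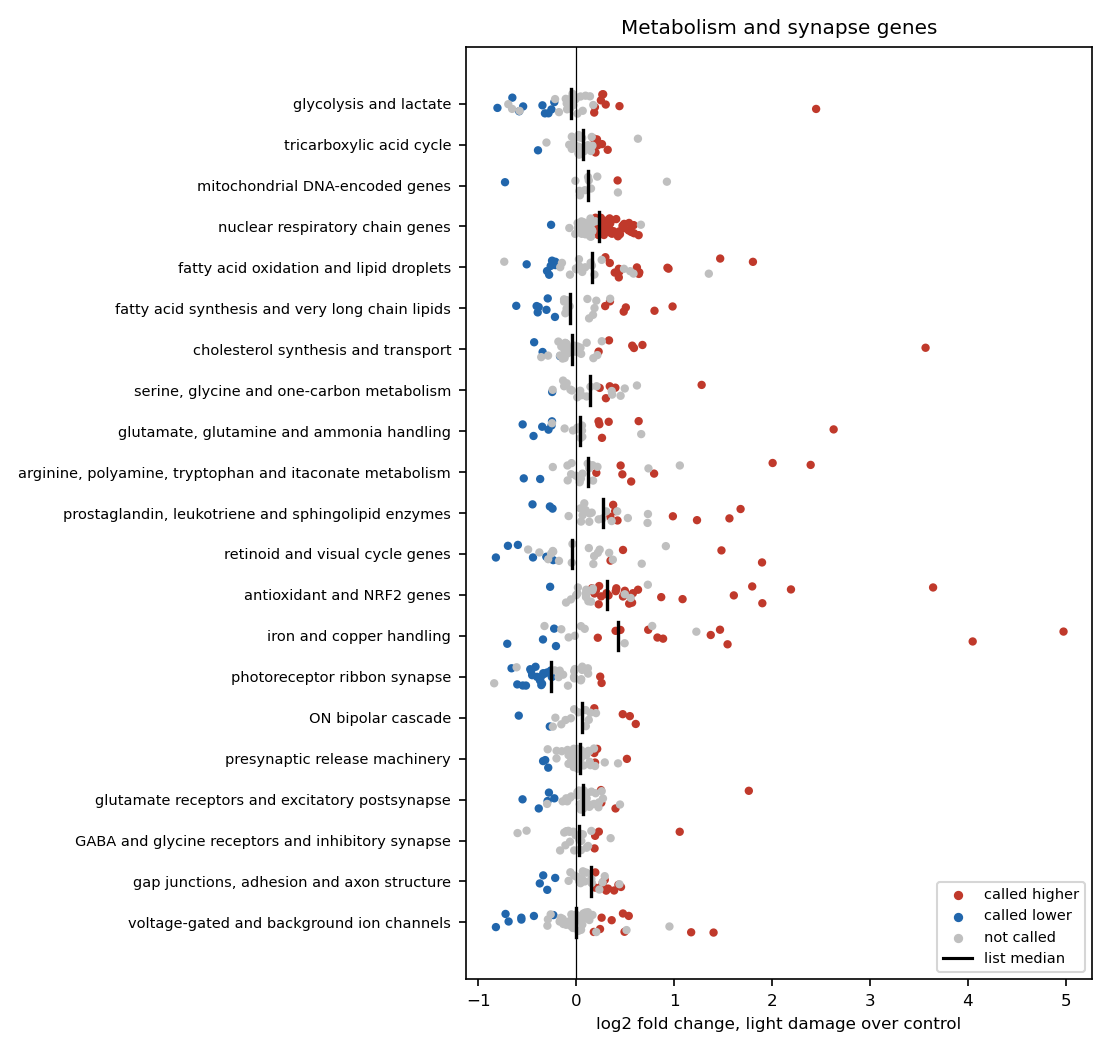
log2 fold change of every tested gene in the metabolism and synapse lists, coloured by call, with the list median as a bar. The medians of iron and copper handling, antioxidant, prostaglandin and nuclear respiratory chain genes lie at 0.43, 0.31, 0.27 and 0.24 and that of the photoreceptor ribbon synapse at -0.26, and the other medians lie between -0.07 and 0.16.

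Of 37 genes of the photoreceptor ribbon synapse 18 fell and 2 rose (median -0.26). Rod markers fell in 8 of 11 cases (median -0.58), and their part in this fall was not tested. Unc13b, a vesicle priming factor of photoreceptors, had 476, 466 and 480 CPM in controls and 299, 292 and 310 CPM in light damage (log2 fold change -0.66, SE 0.06, adjusted p = 8.1e-06). The 3 light damage libraries were alike for Unc13b. Cacna1f, the calcium channel of the ribbon, had 489 to 525 CPM and then 311, 330 and 371 CPM (-0.60, SE 0.07), its subunit gene Cacna2d4 fell by 0.47, and Ctbp2, which encodes the ribbon protein, by 0.33. Elfn1, the adhesion protein that links rods to bipolar cells, fell by 0.54 and Lrit2 by 0.51. Ribbon synapse counts kept this direction with the length trend removed, 16 lower and 3 higher (median -0.20).

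In the ON bipolar cascade, which reads rod release, 4 of 18 rose (22.2%) and 2 fell (11.1%). The receptor gene Grm6 had 223, 206 and 220 CPM in controls and 216, 205 and 181 CPM in light damage (adjusted p = 0.24), and the channel gene Trpm1 had 0.10 (adjusted p = 0.37), though it was called within the high tissue set (adjusted p = 0.044). Pcp2, a G protein regulator of ON bipolar cells, rose by 0.48 and Gng13 by 0.61. Of 43 genes of the general release machinery 4 rose and 3 fell, with Syt1 at 0.05 (adjusted p = 0.61) and Syp at -0.02 (adjusted p = 0.85). Glutamate receptor and postsynaptic genes rose in 4 of 44 cases and fell in 5. Dlg4, which encodes PSD-95 and is also present in photoreceptor terminals, had 954, 927 and 944 CPM and then 576, 677 and 681 CPM (-0.55, SE 0.07), and the activity-regulated gene Arc rose by 1.76. Among inhibitory synapse genes 4 of 28 were higher (14.3%, near the 13% of all genes) and 0 lower, with the GABA transporter Slc6a11 at 0.23. Gap junction, adhesion and axon genes rose in 11 of 34 cases (32.4%) and fell in 4, among them Gap43 (0.46), a growth cone protein, Nefm (0.33) and Nfasc (-0.34). Ion channels rose in 9 of 53 cases (17.0%) and fell in 7 (13.2%), near the shares of all genes. The glial channels Kcnj10 and Aqp4 rose by 0.49 and 0.54.

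Genes of the photoreceptor cilium and of the transduction cascade were lower, beside a median of -0.58 over 11 rod markers, 8 of them lower, whose part in these falls was not tested. Of 46 cilium and outer segment genes 30 fell and none rose (median -0.39), led by Fam161a, of the connecting cilium (532, 500 and 494 CPM against 243, 286 and 338 CPM, -0.82, SE 0.09), and Rpgrip1 (-0.77). Of 25 rod phototransduction genes 18 fell and none rose (median -0.52). Gnat1, rod transducin, had 11974, 11671 and 11017 CPM and then 6685, 8540 and 9116 CPM. Pde6b, the phosphodiesterase subunit, was not called at -0.89 (adjusted p = 0.088). It had 953, 1117 and 2038 CPM in light damage against 2507 to 2586 CPM in controls. The difference between the tissue sets was called (adjusted p = 0.00043). The light damage libraries other than replicate 3 also stood apart at Gm10503 and Glo1. Whether a difference in genotype had a part in the low Pde6b values was not tested. Without light damage replicate 3 the adjusted p of Pde6b was 0.0012, and with the replicate block 0.034.

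Most genes of clearance and many of inflammatory degradation rose. Of 45 lysosome and phagocytosis genes 32 rose and 2 fell (median 0.65). The 18 microglia and macrophage markers had a median of 1.99 and a summed CPM of 87.3 to 100.7 in controls against 284 to 456 in light damage, and their part in this rise was not tested. Ctsd, an abundant lysosomal protease, had 146, 159 and 128 CPM in controls and 472, 382 and 302 CPM in light damage (log2 fold change 1.42, SE 0.17, adjusted p = 0.0011), the debris receptor Axl rose by 1.34 and its relative Mertk by 0.49. Proteasome genes rose in 18 of 36 cases and fell in 1, and the largest rises were the immunoproteasome subunits Psmb9 (2.82), Psmb8 (2.48) and Psmb10 (1.09), against 0.35 for the constitutive Psma6. Autophagy genes were split, 7 higher and 5 lower of 32, with Gabarap at 0.61, Sqstm1 at 0.32 and Optn at -0.46. Hippo and cytoskeletal targets rose in 22 of 39 cases and fell in 1, with S100a6 at 2.74 and Actb, often used as a reference gene, at 0.58.

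Genes of stress pathways moved in both directions, in some lists at shares near those of all genes. Of 40 genes of the unfolded protein and integrated stress response 9 rose (22.5%) and 5 fell (12.5%), against 13% and 12.8% of all genes tested, with a median of 0.01. Their log2 fold changes ran from -0.59 to 2.40, and 3 were called at least 2-fold higher. The chaperone Hspa5, a marker of endoplasmic reticulum stress, had 304, 312 and 294 CPM in controls and 310, 336 and 274 CPM in light damage (adjusted p = 0.89), and Atf4 (0.11, adjusted p = 0.31) and Ddit3 (0.09, adjusted p = 0.45) were not called. Heat shock genes rose in 5 of 35 cases (14.3%, near the 13% of all genes) and fell in 3 (8.57%). Hsp90ab1 had 0.45, and Hspa1a was not called (4.03, 13.5 and 20.0 CPM in light damage against 21.9 to 23.4 CPM, adjusted p = 0.28). Of 31 p53 target and DNA damage genes 5 rose (16.1%) and 2 fell (6.45%), with Gadd45b at 1.39 and Cdkn1a at 1.49, and the p53 target Mdm2 at 0.01 (adjusted p = 0.95). Cell death genes rose in 14 of 40 cases (35%) and fell in 3. Casp1, of the inflammasome, rose by 3.63 from at most 0.202 CPM, Casp8 by 1.53, and Xiap, a caspase inhibitor, fell from 797 to 901 CPM to 516, 563 and 610 CPM (-0.61, SE 0.08, adjusted p = 4.6e-05). Hypoxia targets fell in 7 of 28 cases (25%) and rose in 3, with Kdm3a at -0.50. Circadian genes fell in 5 of 26 cases (19.2%) and rose in 2 (7.69%), with Arntl at -0.34, Dbp at 0.37, and Per1 (-0.15, adjusted p = 0.14) and Nr1d1 (0.00, adjusted p = 0.98) not called. Per1 was called within the high tissue set.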

How the data were processed

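Whole-retina RNA-seq was deposited as 1 table of counts per gene and library. Per the submitters' processing notes, Bowtie2 and RSEM 1.3.1 and the build GRCm39 are named, and the authors' deposited values are whole counts, how they were rounded and whether strand was used not being given in the sources used here. Counts were filtered (filterByExpr, minimum count 10), scaled by TMM and fitted over 9 libraries with edgeR 4.0.16 (robust quasi-likelihood, R 4.3.3), testing light damage minus control with Benjamini-Hochberg adjustment at 0.05. CPM use TMM-scaled library sizes, and log2 values used a prior count of 2. Alternatives were DESeq2 1.42.0, DESeq2 size factors, other filters, the 6 libraries alone, each library left out, a tissue set term, the high tissue set alone, control 3 and light damage 3 left out, the replicate block and, added after seeing the data, the block in the 6 libraries alone and removal of the length trend. The steps were tested on simulated data. The libraries held 14787972 to 18740434 counts, which limits genes near 1 CPM. The members and gene lists were chosen with earlier results of these data known. The text names, per list, genes among the 6 with the smallest adjusted p and key genes whatever their values; others are marked as named after their values were seen. Replicate numbers in the labels were checked for pairing by correlating deviations from the group means, with 0.1 as the threshold. Control with light damage gave 0.12, 0.25 and 0.31 for numbers 1, 2 and 3. Unlike numbers passed too, control 2 with light damage 1 at 0.13 and with A74 1 at 0.20. A74 with control and light damage gave 0.07 and 0.13 for number 1, -0.09 and -0.07 for number 2, and 0.14 and 0.13 for number 3. Control 3 and light damage 3 are also the low tissue set, and the library names number light damage otherwise than the titles. The check therefore cannot settle pairing. No 2 control libraries and no 2 light damage libraries agreed within sampling noise. Results for some genes are not reported here.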

Additional observations from a re-analysis of the deposited data

How the results depend on the processing

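Leaving out 1 library gave 2842 to 5395 genes called, 1472 to 2766 higher, 1370 to 2629 lower, 372 to 618 at least 2-fold higher and 79 to 218 at least 2-fold lower, against 4452, 2247, 2205, 482 and 133 with all libraries. The lowest total came without light damage replicate 2 and the highest without light damage replicate 3. Genes at least 2-fold lower numbered 248 within the high tissue set and 224 with control 3 and light damage 3 left out. The replicate block gave 4588 genes called, and 3898 in the 6 libraries alone. Apart from Nr2e3 and Pde6b, it changed no call named in the text in the fit of 9 libraries. DESeq2 called 3967 genes. Of 54 list medians, 23 were at least 0.2 in size, and all 23 kept their sign in the 17 alternatives. Genes under about 1 CPM rest on few counts.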

Other observations

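Few long noncoding RNAs were called higher. Of 1637 tested, 40 were higher (2.44%) and 206 lower (12.6%), against 13% and 12.8% of all genes tested, with a median log2 fold change of -0.15, and the medians of light damage replicates 1, 2 and 3 were -0.14, -0.16 and -0.12. With the length trend removed 31 were higher and 229 lower, and DESeq2 called 25 higher and 166 lower. Protein coding genes were split more evenly, 2140 higher and 1885 lower of 14251. Among unconfirmed transcripts, which the annotation sets apart for experimental follow-up, 2 of 475 were higher and 62 lower, with a median of -0.26.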
